A study of Mus musculus with 6 samples.

Results

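A set of 10 neutrophil genes, chosen by symbol, was followed in mouse lungs: 7 that mark the mature cell (S100a8, S100a9, Retnlg, Csf3r, Cxcr2, Mmp8 and Mmp9) and 3 that encode proteins of the specific granules made earlier in the marrow (Ngp, Ltf and Camp). All 10 were among the 47069 genes counted, and 9 were among the 17037 genes with enough reads to be tested. Camp was too low for the test. The study asked how a deletion at the Zpbp2 locus bears on lung gene expression at ZT10, that is, 10 hours after lights on. Lungs of 3 Zpbp2 knockout mice (KO4 to KO6) were compared with those of 3 wild type mice (WT4 to WT6), with 1 mRNA library per mouse.

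In the KO mice, which are on C57BL/6J, exons 1 to 3 at the 5′ end of Zpbp2 are deleted in the germline. The WT controls were C57BL/6J mice housed in one colony with them. All mice were adults kept under a 12h:12h light/dark cycle and no treatment is stated. RNA came from lung tissue and not from sorted cells, and no perfusion is mentioned, so blood in the vessels may be part of each sample. The study used mice of both sexes, and the labels do not give the sex of each mouse; the levels of sex-linked genes are given with the other marker genes. Between 19981428 and 46796908 reads per library were counted on genes, and KO5 was the deepest. A count of 3, taken as the detection floor, corresponds to between 0.0629 and 0.148 CPM (the count relative to a scaled library size), and this floor covers counting error only. Zpbp2 itself had 1, 2 and 2 counts in the WT lungs and 0 in each KO lung, which is at or under the floor in all 6 and does not check the genotype.

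Neutrophils are short-lived white blood cells that mature in the bone marrow, and the lung vasculature holds a large marginated pool of them. Granule genes are transcribed in sequence, with primary granule genes such as Mpo and Elane in promyelocytes. Specific granule genes such as Ltf, Camp and Ngp follow in myelocytes and metamyelocytes, and the gelatinase gene Mmp9 later still. Mmp8, which encodes neutrophil collagenase, and Mmp9 are counted here with the mature genes although both encode granule proteins. The mature cell has largely stopped transcribing granule genes and instead carries S100a8 and S100a9, Retnlg, and the receptors Csf3r and Cxcr2. Transcription factors of the C/EBP family and PU.1 drive many of these genes.

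The DNA upstream of the genes was read from RefSeq for GRCm38.p6, which gave a start-site window (250 bases before and 50 after the start) for 9 of the 10 genes and none for Mmp9. The letters ATTGC, the core of a C/EBP half-site, searched on both strands (GCAAT on the other), occurred in 8 of the 9 windows, the exception being Cxcr2. Of 32851 windows of the same length, 26.4% held them. The letters GAGGAA, a PU.1 core (TTCCTC on the other strand), occurred in 5 of the 9 (S100a8, Csf3r, Cxcr2, Mmp8 and Ltf), against 28.3% of all windows. No match to one motif overlapped a match to the other in the 9 windows, and a match in letters is a description, not a binding site. The 120 bases shown for each of 5 genes, 5′ to 3′ on the gene's own strand, are those of the 3 genes that passed the test in KO lungs and of the 2 granule genes that were tested; capitals mark the matches. The stretch shown for S100a8 lies at chr3:90668858-90668977 (plus strand) and that for S100a9 at chr3:90695722-90695841 (minus). The stretch for Retnlg lies at chr16:48872488-48872607 (plus), that for Ngp at chr9:110419627-110419746 (plus) and that for Ltf at chr9:111019151-111019270 (plus).
S100a8: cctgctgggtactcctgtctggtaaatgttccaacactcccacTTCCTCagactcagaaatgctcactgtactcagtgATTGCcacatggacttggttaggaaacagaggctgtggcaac
S100a9: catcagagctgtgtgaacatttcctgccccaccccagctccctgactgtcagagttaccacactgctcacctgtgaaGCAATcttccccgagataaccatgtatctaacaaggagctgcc
Retnlg: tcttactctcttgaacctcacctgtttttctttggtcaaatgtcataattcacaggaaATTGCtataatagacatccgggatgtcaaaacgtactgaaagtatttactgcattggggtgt
Ngp: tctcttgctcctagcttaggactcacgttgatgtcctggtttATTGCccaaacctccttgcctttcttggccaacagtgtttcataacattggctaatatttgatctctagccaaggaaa
Ltf: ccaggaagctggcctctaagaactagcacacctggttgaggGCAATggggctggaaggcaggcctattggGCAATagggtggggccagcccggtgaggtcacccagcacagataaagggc
Both groups of genes held C/EBP half-site letters in these stretches, 1 match each in S100a8, S100a9, Retnlg and Ngp and 2 in Ltf. The PU.1 letters appear in the stretch of S100a8 alone among the 5 shown. The stretches lie at unlike distances from the start, such as -213 to -94 for S100a8 and -141 to -22 for Ltf. Outside them, Ltf has a PU.1 match at -157 to -152. S100a8 has a PU.1 match at -36 to -31 and a C/EBP match at -238 to -234, also outside its stretch.

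Of the 7 mature genes, 3 rose in KO lungs: S100a8, S100a9 and Retnlg, between 2.01-fold and 2.44-fold. A gene was called at an adjusted p of at most 0.05 from the edgeR fit over all genes, by which 3.72% of all genes tested were called higher in KO lungs, 2.67% lower and 6.39% in either direction. No mature gene was called lower, 0 were lower at an unadjusted p of 0.05, and neither DESeq2 nor edgeR's exact test called one lower. At that unadjusted limit, 13.9% of all genes tested were higher in KO lungs and 11.6% lower. DESeq2 called 6 of the 7 higher and the exact test 4. Of the 17037 genes tested, DESeq2 called 1102 higher and 811 lower, and the exact test 936 higher and 532 lower. All 7 had a fitted log2 fold change above 0, with a median of 1.01, while 50.6% of all genes tested had one above 0 and their median was 0.0030.

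In 6 of the 7 mature genes the lowest KO lung was above the highest WT lung, as in 17% of all genes tested. All KO lungs were below all WT lungs in 15.6% of all genes, and 32.6% did not overlap in either direction. Neither Ngp nor Ltf, the granule genes that were tested, was called, neither reached an unadjusted p of 0.05, and neither was called by the exact test or DESeq2. The difference between the mature and the granule genes was not itself tested. No member passed the stricter limit that adds a log2 fold change of at least 1.5 in size, which 0.575% of all genes passed upward and 0.0646% downward. In lung tissue, fewer cells of a type and less RNA per cell cannot be told apart, and the same holds for more.

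**Figure D1:**
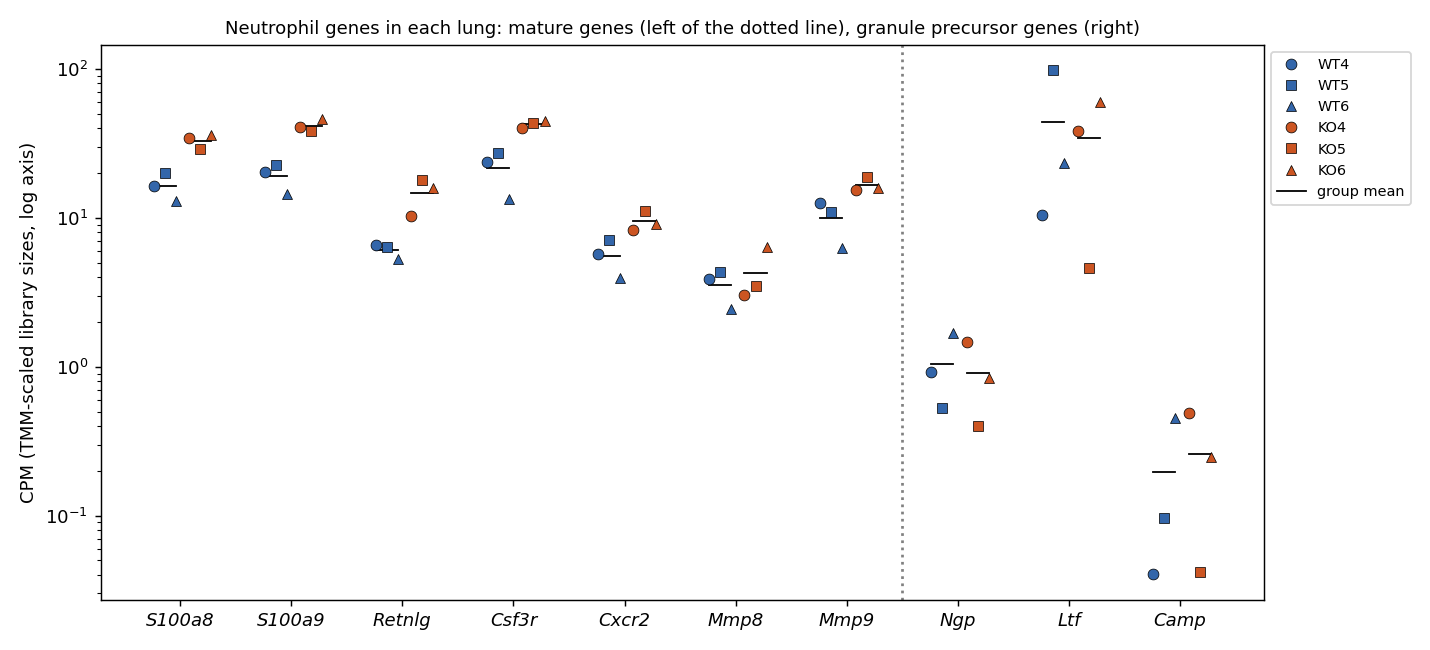
Level of each of the 10 neutrophil genes in each lung, in CPM on a log axis, with WT and KO mice as separate points and the group mean as a bar. S100a8, S100a9, Retnlg, Csf3r, Cxcr2 and Mmp9 separate the 3 KO from the 3 WT lungs, whereas Mmp8, Ngp, Ltf and Camp overlap, and Ltf spans 21.3-fold between WT5 and KO5.

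S100a8 and S100a9 encode the subunits of calprotectin, a calcium- and zinc-binding complex that fills the neutrophil cytosol. Gene positions here are for GRCm38 from GENCODE mouse release 21, which lists all 10 genes as protein-coding and places 0 other genes over them. S100a8 (ENSMUSG00000056054, chr3:90668978-90670035, plus strand) and S100a9 (ENSMUSG00000056071, chr3:90692632-90695721, minus strand) are neighbours, 22.6 kb apart. S100a8 was counted 404, 421 and 399 times in WT4, WT5 and WT6, and 699, 1375 and 734 times in KO4, KO5 and KO6. In CPM, which takes depth into account, these are 16.3, 20.2 and 12.9 against 34.2, 28.8 and 36.2. Every KO lung was above every WT lung. The mean was 16.4 ± 3.64 CPM in WT lungs and 33.1 ± 3.82 in KO lungs (SD, n = 3 each), a log2 fold change of 1.01 (SE 0.166, 95% interval 0.62 to 1.40, edgeR adjusted p = 0.0241). S100a8 lost its call when WT4, WT5, WT6 or KO6 was left out (adjusted p = 0.0776, 0.0672, 0.0717 and 0.0695), with log2 fold changes between 0.86 and 1.18 over the 6 omissions.

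S100a9 gave the same picture at a slightly higher level. Its values were 20.3, 22.6 and 14.6 CPM in WT4, WT5 and WT6 and 40.9, 38.1 and 46.1 CPM in KO4, KO5 and KO6. WT6 was the lowest lung and KO6 the highest, and the groups did not overlap. The mean rose from 19.2 ± 4.16 to 41.7 ± 4.06 CPM (n = 3 each), 2.18-fold (95% interval 1.68 to 2.83) or 1.12 on the log2 scale (SE 0.161, edgeR adjusted p = 0.0186), the smallest p among the 9 tested. Without WT4, WT5 or KO6 the adjusted p of S100a9 was 0.0538, 0.0692 or 0.0633. The number of S100a9 counts per S100a8 count was 1.25, 1.12 and 1.13 in WT4, WT5 and WT6 and 1.20, 1.32 and 1.27 in the KO lungs, so the ratio of the subunits overlapped between groups. Over the 6 lungs the log2 CPM of the pair had a Pearson correlation of 0.993, given as a description of libraries that differ in genotype and depth.

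Retnlg (ENSMUSG00000022651, chr16:48872621-48874496, plus strand) encodes resistin-like gamma, a small secreted protein found in mouse neutrophils. Its counts were 164, 133 and 163 in the WT lungs and 211, 859 and 323 in KO4, KO5 and KO6, equal to 6.60, 6.37 and 5.27 against 10.3, 18.0 and 15.9 CPM. The KO lungs were all above the WT lungs, with KO5 the highest. Retnlg had the largest fold change of the 9 tested genes, 2.44-fold or 1.29 on the log2 scale (SE 0.214, 95% interval 0.78 to 1.79, edgeR adjusted p = 0.0246), from 6.08 ± 0.711 to 14.8 ± 3.99 CPM. It passed without KO4 and without KO5 and in none of the other 4 omissions, where adjusted p was 0.0690 without WT4, 0.115 without WT5, 0.0915 without WT6 and 0.0711 without KO6.

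Csf3r and Cxcr2 encode the receptors for granulocyte colony-stimulating factor, which drives neutrophil production and survival, and for CXC chemokines, which draw neutrophils out of the marrow and into tissue. Csf3r (ENSMUSG00000028859, chr4:126024550-126044440, plus strand) had 23.8, 27.4 and 13.4 CPM in WT4, WT5 and WT6 and 40.4, 43.7 and 45.0 CPM in KO4, KO5 and KO6. The KO lungs were tight and all above the WT lungs, of which WT6 was the lowest. With 21.5 ± 7.25 against 43.0 ± 2.37 CPM the log2 fold change was 1.01 (SE 0.233, 95% interval 0.46 to 1.55), and the edgeR adjusted p of 0.0504 fell just short of the threshold. Csf3r passed it without WT6 (log2 fold change 0.75, adjusted p = 0.0474), in edgeR's exact test (adjusted p = 0.00163) and in DESeq2 (adjusted p = 1.28e-04). Csf3r did not pass without WT4, WT5, KO4, KO5 or KO6 (edgeR adjusted p = 0.113, 0.109, 0.0704, 0.0766 and 0.115). With the replicate number as a block its edgeR adjusted p was 0.0974.

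Cxcr2 (ENSMUSG00000026180, chr1:74153989-74161246, plus strand) was lower in level and in fold change. Its counts were 142, 148 and 122 in the WT lungs and 169, 529 and 183 in the KO lungs, or 5.72, 7.09 and 3.95 against 8.26, 11.1 and 9.04 CPM. The groups did not overlap, but the gap between WT5 and KO4 was small. The log2 fold change was 0.77 (SE 0.226, 95% interval 0.24 to 1.30) and did not pass (edgeR adjusted p = 0.0886), while DESeq2 called it (adjusted p = 0.0185). Leaving out single lungs gave 0.57 to 0.98 and no call. Over the 6 lungs Cxcr2 tracked Csf3r with a Pearson correlation of 0.968 in log2 CPM, a description only.

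Mmp9 and Mmp8 encode gelatinase B and neutrophil collagenase, metalloproteinases that are stored in granules and cleave extracellular matrix. Mmp9 (ENSMUSG00000017737, chr2:164940780-164955850, plus strand) had 12.7, 10.9 and 6.24 CPM in WT4, WT5 and WT6 and 15.3, 18.8 and 15.9 CPM in the KO lungs. The groups did not overlap, yet the log2 fold change of 0.75 (SE 0.245, 95% interval 0.18 to 1.33) did not pass (edgeR adjusted p = 0.113), while DESeq2 called it (adjusted p = 0.0225). Mmp8 (ENSMUSG00000005800, chr9:7558456-7568485, plus strand) was the mature gene whose groups overlapped. It had 3.90, 4.31 and 2.43 CPM in WT4, WT5 and WT6 and 3.03, 3.48 and 6.37 CPM in KO4, KO5 and KO6.

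Only KO6 was above all WT lungs for Mmp8, while KO4 and KO5 lay between them. Its log2 fold change was 0.27 (SE 0.334, 95% interval -0.51 to 1.06, edgeR adjusted p = 0.657) and turned to -0.11 without KO6. The number of Mmp9 counts per Mmp8 count was 3.25, 2.53 and 2.57 in WT4, WT5 and WT6, and 5.05 and 5.39 in KO4 and KO5. In KO6, with 322 Mmp9 and 129 Mmp8 counts, the ratio was below that of all WT lungs. Pearson correlations of Mmp8 with the other 6 mature genes over the 6 lungs lay between 0.467 and 0.583, the lowest within the mature group.

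**Figure D2:**
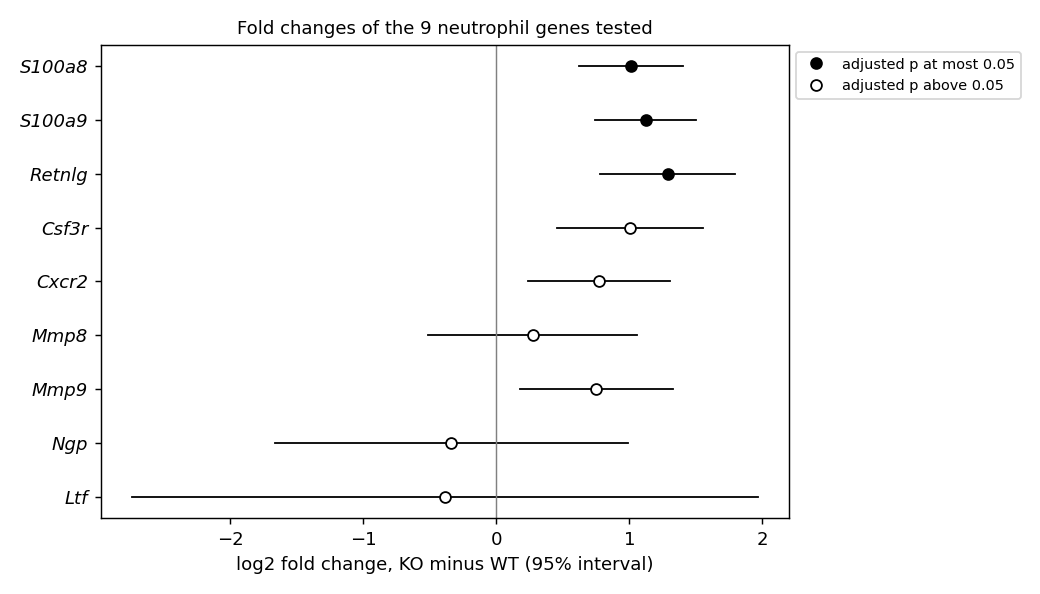
Log2 fold change of KO against WT lungs for the 9 neutrophil genes that were tested, with 95% intervals from the edgeR fit, a line at 0 and filled points for called genes. The intervals of S100a8, S100a9, Retnlg, Csf3r, Cxcr2 and Mmp9 lie above 0, that of Mmp8 runs from -0.51 to 1.06, and those of Ngp and Ltf span 0, with Ltf running from -2.74 to 1.96.

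For each of the 6 mature genes without overlap, the exact two-sided permutation test gave p = 0.1, which is the smallest that 3 lungs against 3 can give. Summed over the 7 mature genes the level was 89.3, 98.9 and 58.8 CPM in WT4, WT5 and WT6 and 152, 162 and 175 CPM in KO4, KO5 and KO6, a ratio of means of 1.98. WT6 held the lowest value of each of the 7 mature genes, and KO5 or KO6 the highest. The 7 genes are therefore not 7 independent measurements. Without WT6 the median log2 fold change of the 7 was 0.75, and without WT5 it was 1.18. The number of members called higher was 3 in the full set, 3 without KO4 or without KO5, 2 without WT6 and 0 without WT4, WT5 or KO6. The number of genes called over the whole table moved as well, from 1089 to 254 without WT4, 1 without WT5, 63 without WT6, 117 without KO6, 1278 without KO4 and 933 without KO5.

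Ngp, Camp and Ltf all lie on chromosome 9, with Camp 570.1 kb from Ngp and Ngp 596.3 kb from Ltf. Ngp (ENSMUSG00000032484, chr9:110419747-110423012, plus strand), neutrophilic granule protein, was counted 23, 11 and 52 times in WT4, WT5 and WT6 and 30, 19 and 17 times in KO4, KO5 and KO6. In CPM these are 0.926, 0.527 and 1.68 against 1.47, 0.399 and 0.839. The highest lung was WT6 and the lowest KO5, and the groups overlapped throughout. The means were 1.04 ± 0.586 and 0.902 ± 0.537 CPM, with a log2 fold change of -0.34 (SE 0.564, 95% interval -1.67 to 0.99, edgeR adjusted p = 0.756). Without WT6 the value for Ngp was 0.21 and without KO5 0.10, so no direction can be given.

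Camp (ENSMUSG00000038357, chr9:109847379-109849617, minus strand) encodes the antimicrobial peptide cathelicidin. Its counts were 1 for WT4, 2 for WT5 and 14 for WT6, beside 10 for KO4, 2 for KO5 and 5 for KO6. WT4, WT5 and KO5 were at or below the floor of 3 counts, and no fold change is given. Ngp and Camp together amounted to 10.8, 6.30 and 36.3 counts per 1000 mature counts in WT4, WT5 and WT6 and to 12.8, 2.72 and 6.22 in KO4, KO5 and KO6. The range of the KO lungs overlapped that of the WT lungs, and WT6, lowest in the mature genes, was the highest in this ratio.

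Ltf (ENSMUSG00000032496, chr9:111019271-111042767, plus strand) encodes lactoferrin, an iron-binding protein of specific granules that glandular and airway epithelia also secrete. It had 10.4, 98.7 and 23.4 CPM in WT4, WT5 and WT6 and 38.1, 4.64 and 59.7 CPM in KO4, KO5 and KO6. WT5 was the highest lung and KO5 the lowest, with a 9.47-fold span among WT lungs and a 12.9-fold span among KO lungs. The means were 44.2 ± 47.7 and 34.2 ± 27.8 CPM, with a log2 fold change of -0.39 (SE 0.999, 95% interval -2.74 to 1.96, edgeR adjusted p = 0.852). The sign turned when WT5 was left out (0.99) and when KO5 was left out (0.16), so no direction can be given for Ltf.

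Ltf and Ngp did not keep a fixed ratio. The number of Ltf counts per Ngp count was 11.3, 187 and 13.9 in WT4, WT5 and WT6 and 26.0, 11.6 and 71.2 in KO4, KO5 and KO6. Over the 6 lungs the Pearson correlation of log2 CPM was 0.815 between Ngp and Camp, 0.216 between Ltf and Ngp and 0.476 between Ltf and Camp. Ltf was then set beside 8 airway secretory and 6 airway ciliated genes, lists written after the values of Ltf were seen.

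Across the 6 lungs, Ltf had its highest correlation on those lists with Reg3g (0.985), which encodes an antimicrobial lectin of epithelia. Reg3g was counted 148, 1099 and 464 times in WT4, WT5 and WT6 and 535, 79 and 1108 times in the KO lungs. In CPM it ran from 1.66 in KO5 to 52.7 in WT5 and 54.7 in KO6, so WT5 and KO6 were the highest and KO5 the lowest for both genes. Correlations of Ltf with the other 7 secretory genes lay between 0.806 (Scgb3a2) and 0.945 (Bpifb1), and those with the ciliated genes Tekt1 and Dnah5 were 0.577 and 0.815. With Ngp in place of Ltf the secretory genes gave 0.322 to 0.597, and the ciliated genes gave 0.551 to 0.777, with Tekt1 (0.777) and Tppp3 (0.671 with Ngp, 0.664 with Ltf) higher for Ngp than for Ltf. Bpifa1, a secreted protein of the upper airway, ranged from 1.22 CPM in KO5 to 593 CPM in WT5. Of the 8 secretory genes 0 were called by edgeR's quasi-likelihood test, with 0 at an unadjusted p of 0.05 and 0 in DESeq2 and in the exact test. Of the 6 ciliated genes 0 were called, with 1 lower at an unadjusted p of 0.05, 1 lower in DESeq2 and 0 in the exact test. Among all genes tested, 11.6% were lower at that unadjusted limit. The summed secretory level ran from 882 to 2082 CPM in WT lungs and from 426 to 1563 CPM in KO lungs, and the ciliated level from 605 to 756 and from 438 to 628 CPM. The part of airway tissue in the Ltf values was not tested.

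**Figure D3:**
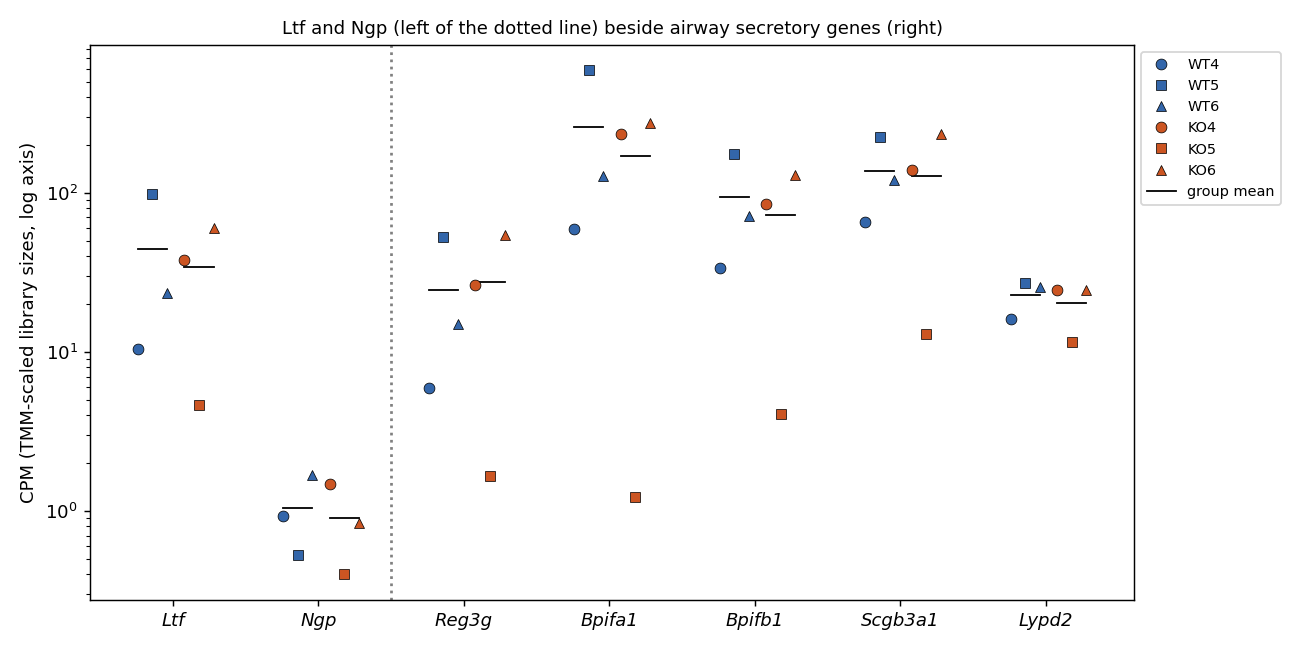
Level of Ltf, Ngp and 5 airway secretory genes in each of the 6 lungs, in CPM on a log axis, with group means as bars. Ltf and Reg3g share their high lungs (WT5 and KO6) and their low lung (KO5), with a Pearson correlation of 0.985, whereas Ngp is highest in WT6.

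Levels between genes were set side by side as CPM per kilobase of exon. In WT lungs the order was S100a9 (36.7 ± 7.96), S100a8 (23.7 ± 5.24), Ltf (12.8 ± 13.8), Retnlg (10.3 ± 1.20), Csf3r (5.97 ± 2.01), Mmp9 (2.81 ± 0.941), Cxcr2 (1.83 ± 0.517), Mmp8 (1.46 ± 0.409), Ngp (0.855 ± 0.480) and Camp (0.259 ± 0.295). Of neighbours in this order, Retnlg and Csf3r, and Csf3r and Mmp9, differed by more than the sum of their SDs, and the other 7 pairs did not. In KO lungs the order began with S100a9 (79.8 ± 7.77), S100a8 (47.7 ± 5.50), Retnlg (24.9 ± 6.72) and Csf3r (11.9 ± 0.656), each apart from the next by more than the sum of their SDs. Csf3r and Ltf (9.90 ± 8.05), and Ltf and Mmp9 (4.71 ± 0.522), did not differ by that much. Cxcr2 (3.11 ± 0.481) lay apart from both Mmp9 and Mmp8 (1.77 ± 0.747), while Mmp8, Ngp (0.738 ± 0.439) and Camp (0.342 ± 0.295) did not separate from their neighbours below. The granule genes Ngp and Camp stayed below 1 CPM per kilobase on average in both groups.

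Other neutrophil genes were read from 4 lists, written from knowledge of the cell, with 36 genes of which 27 were tested. The lists are not exclusive to neutrophils, and Chil3 stands on the list of alveolar macrophage genes too. Of the 27, 4 rose (Trem3, Clec4e, Alox5ap and Mmp25) and 0 fell in edgeR's quasi-likelihood test, with 0 lower at an unadjusted p of 0.05 and 0 lower in DESeq2 or the exact test. Their median log2 fold change was 0.53, 24 were fitted above 0 and 12 had all KO lungs above all WT lungs. Of all genes tested, 3.72% were called higher, 50.6% were fitted above 0 and 17% had all KO lungs above all WT lungs. The medians by list were 0.62 for 11 surface receptors, 0.37 for 9 cytosolic and secreted products, 0.72 for 5 specific and gelatinase granule genes and 0.74 for the 2 tested of 8 primary granule genes. The number of these calls was 1 without WT4, 0 without WT5, without WT6 or without KO6, 2 without KO4 and 7 without KO5.

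Trem3, a receptor that amplifies myeloid activation, had counts of 16, 10 and 25 in the WT lungs and of 45, 72 and 45 in the KO lungs, a log2 fold change of 1.57 (SE 0.272, edgeR adjusted p = 0.0264). Clec4e, the C-type lectin receptor Mincle, had 58, 54 and 114 counts against 214, 236 and 258, a log2 fold change of 1.69 (SE 0.365, adjusted p = 0.0431). In CPM, all 4 called genes were higher in every KO lung than in every WT lung. Mmp25, a membrane-anchored metalloproteinase of neutrophils, rose by 0.72 on the log2 scale (SE 0.149, adjusted p = 0.0390), and Alox5ap, which presents arachidonic acid for leukotriene synthesis, by 0.46 (SE 0.105, adjusted p = 0.0492).

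Several further neutrophil genes had high fitted values without passing. The granule genes Cd177 and Pglyrp1, the latter a peptidoglycan-binding protein, had log2 fold changes of 1.22 (adjusted p = 0.201) and 0.96 (adjusted p = 0.0507). Stfa2l1, a member of a family of near-identical stefin genes whose reads may be shared, had 1.02 (adjusted p = 0.0579), and Padi4, which citrullinates histones, 0.77 (adjusted p = 0.0998). Of the primary granule list, Gfi1 had 0.87 (adjusted p = 0.148) and Prtn3 0.61 (adjusted p = 0.279).

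**Figure D4:**
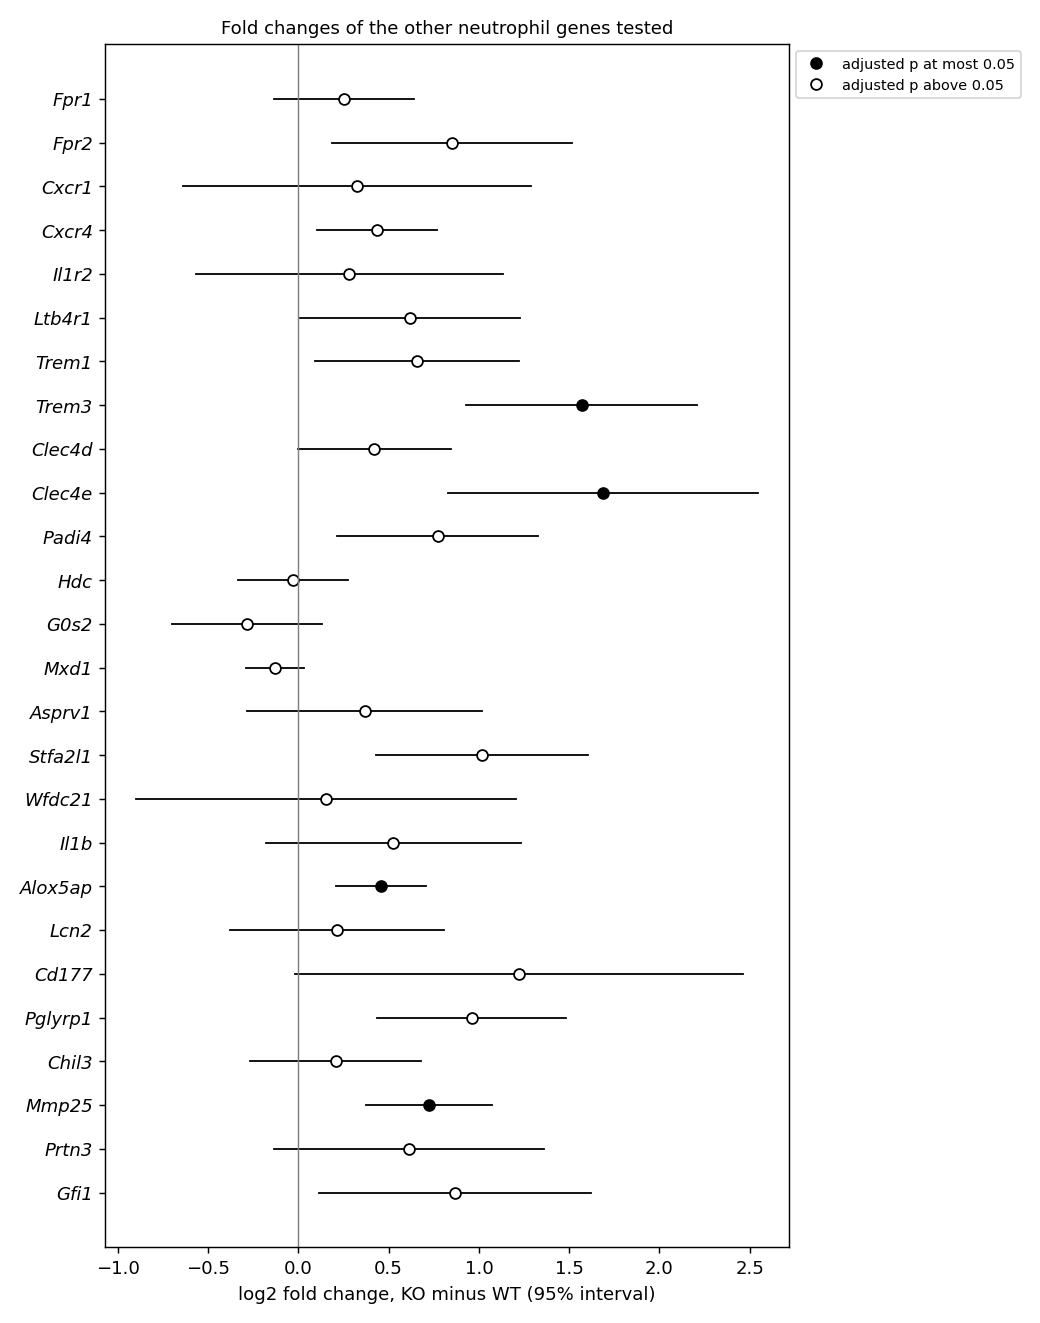
Log2 fold change of KO against WT lungs for the tested neutrophil genes outside the 10, all but 1 of the 27, with 95% intervals from the edgeR fit and filled points for called genes. The 4 called genes (Trem3, Clec4e, Alox5ap and Mmp25) have fitted values between 0.46 and 1.69, and 3 genes (Hdc, G0s2 and Mxd1) lie below 0.

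Most genes of the primary granules and of promyelocytes were at or below the floor. Elane had 0 counts in all 6 lungs, Mpo had 3, 1 and 0 in WT4, WT5 and WT6 and 0, 2 and 0 in the KO lungs, and Ctsg, Ms4a3 and Fcnb had at most 2 in any lung. Prtn3 had 12 to 68 counts, Gfi1 17 to 122 counts, and Cebpe 28 counts in KO5 and at most 5 elsewhere. Ly6g, the surface antigen used to sort mouse neutrophils, had 3 counts in each WT lung and 3, 7 and 5 in KO4, KO5 and KO6, too few to be tested. S100a8, S100a9, Csf3r and Cxcr2, by contrast, had 122 counts or more in every lung.

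Ligands and partners of the receptors and proteases were also examined. Of 7 ligands of Csf3r and Cxcr2, 5 were tested and 0 were called by edgeR's quasi-likelihood test. Of the 5, 1 (Ppbp) was lower at an unadjusted p of 0.05, in DESeq2 and in the exact test. Among all genes tested, 11.6% were lower at that unadjusted limit. Ppbp, the platelet chemokine precursor, had a log2 fold change of -0.52 (SE 0.130, adjusted p = 0.0618), and every KO lung was below every WT lung. Cxcl3 and Cxcl2, chemokines that bind Cxcr2, had 0.66 (SE 0.553, adjusted p = 0.503) and -0.65 (SE 0.655, adjusted p = 0.586). Csf3, the ligand of Csf3r, was counted once in WT5, 4 times in KO5, once in KO6 and not at all in the other 3 lungs.

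The receptors of calprotectin, Tlr4 and Ager, had log2 fold changes of -0.020 (adjusted p = 0.906) and -0.16 (adjusted p = 0.255), with 0 of 2 called in edgeR, DESeq2 and the exact test and 0 at an unadjusted p of 0.05. All 4 Timp genes, which encode inhibitors of Mmp8 and Mmp9, had fitted values below 0, with a median of -0.35. None was called by edgeR's quasi-likelihood test, while 2 were lower at an unadjusted p of 0.05, 1 in DESeq2 and 1 in the exact test. The share of all genes tested that were lower at that unadjusted limit was 11.6%. Timp1 had -0.54 (adjusted p = 0.244) and Timp4 -0.35 (adjusted p = 0.431).

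Markers of other blood cells also differed between the groups. Of 12 monocyte genes, 10 rose, with a median log2 fold change of 1.13, and the list summed to 1743 to 1784 CPM in WT lungs and 1849 to 2189 CPM in KO lungs. Ace, which lung endothelium also transcribes, made up most of that sum (log2 fold change 0.014, adjusted p = 0.945). The other 11 genes, summed without Ace after its values were seen, had 267 to 354 CPM in WT lungs and 495 to 675 CPM in KO lungs, a ratio of means of 1.82. Cx3cr1 (1.52, edgeR adjusted p = 0.0118), Spn (1.27, adjusted p = 0.0118), Ms4a6c (1.51, adjusted p = 0.0134) and Adgre4 (2.31, adjusted p = 0.0176) had the smallest p values of the list. S100a8, S100a9 and Csf3r are also transcribed in monocytes. None of the 12 monocyte markers was at 0 in any lung. The part of monocytes in the values of the mature genes, and of the other neutrophil genes that were called, was not tested.

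Red cell genes went the other way, with 5 of 6 lower (Hba-a1, Hba-a2, Hbb-bs, Hbb-bt and Alas2), a median of -0.87 and sums of 2130 to 2280 CPM in WT lungs against 1037 to 1413 CPM in KO lungs. The globin genes are near-identical in pairs, and whether they share reads was not tested. Of 7 B cell genes 0 were called, with 7 higher at an unadjusted p of 0.05, 6 in DESeq2 and 7 in the exact test. As a base for all marker lists, 13.9% of all genes tested were higher at that unadjusted limit and 11.6% lower. The B cell list summed to 119 to 132 CPM in WT lungs and 225 to 966 CPM in KO lungs, with KO5 the highest. Eosinophil genes summed to 12.9 to 18.2 against 20.8 to 36.4 CPM, with 0 of 4 called, 2 higher at an unadjusted p of 0.05 and 1 in DESeq2 and in the exact test, and Epx had at most 2 counts. Their part in the values of the mature genes was not tested.

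Of 6 T cell genes 0 were called (5 higher at an unadjusted p of 0.05, 4 in DESeq2, 1 in the exact test), and of 6 natural killer cell genes Ncr1 rose (0.79, adjusted p = 0.0450). Marco rose among 8 alveolar macrophage genes (1.26, adjusted p = 0.00665). Of 4 tested mast cell and basophil genes 0 were called (1 higher at an unadjusted p of 0.05, 0 in DESeq2 and the exact test). Of 6 platelet genes 0 were called (3 lower at an unadjusted p of 0.05, 1 in DESeq2 and 1 in the exact test). Cldn5 fell among 8 genes of lung epithelium and endothelium (-0.31, adjusted p = 0.0362). Of 5 sex-linked genes Xist alone had enough reads to test (0.32, adjusted p = 0.0616), and it measured 715 to 994 CPM in all 6 lungs. The Y-linked genes Ddx3y, Eif2s3y, Kdm5d and Uty had 0 counts in every lung but KO5 (9, 2, 7 and 6 counts) and WT5 (1 count of Uty).

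**Figure D5:**
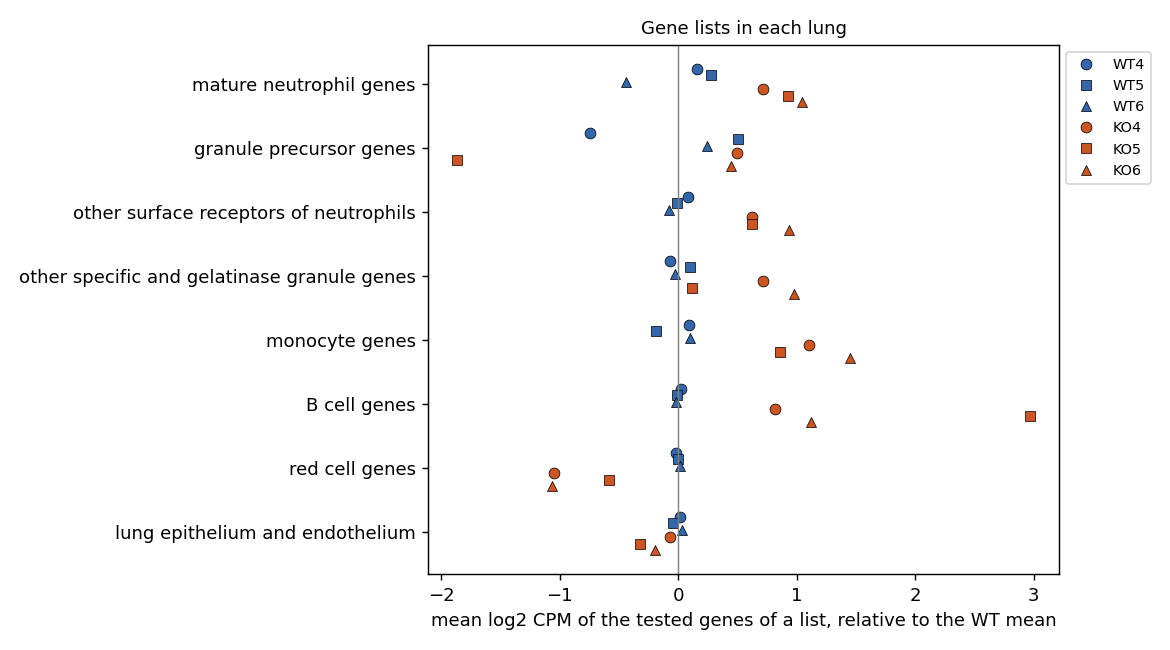
Mean log2 CPM of the tested genes of 8 lists in each lung, relative to the mean of the WT lungs, with 1 point per mouse. The mature neutrophil genes lie between 0.72 and 1.04 in KO lungs and between -0.44 and 0.28 in WT lungs, the granule precursor genes run from -1.86 in KO5 to 0.50 in WT5 and KO4, and B cell genes are highest in KO5.

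Of the 5 genes whose log2 CPM was most like the mean of the mature genes over the 6 lungs, among 12488 genes at a mean of at least 5 CPM, 4 are given here: Pbxip1 (Pearson correlation 0.997), Gm14326 (0.989), Gm5141 (0.987) and Ifit2 (0.987). Their log2 fold changes were small, from 0.20 for Pbxip1 to 0.42 for Gm5141. Of the 5 most like the mean of Ngp and Ltf, 4 are given: 1700040L02Rik (0.995), Ttc39a (0.994), Fam179a (0.990) and Lypd2 (0.988), with log2 fold changes between -0.20 for Lypd2 and -0.043 for 1700040L02Rik. Lypd2 stands on the airway secretory list. With 6 lungs and this many candidates, these correlations are a description only.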

How the data were processed

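RNA from lungs at ZT10 had been sequenced from a stranded mRNA kit. According to the submitters' processing notes and the methods, reads were trimmed with Trimmomatic 0.36, aligned to GRCm38 with STAR 2.5.3a, processed with Picard 2.9.0 and counted with HTSeq 0.6.0. The authors deposited raw counts per Ensembl gene without normalization, in 1 column per mouse, and the annotation release and the strand setting of the counting are not given in the sources used here. Libraries were grouped by their titles, with 1 library per mouse.

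KO was compared with WT in R 4.3.3 with edgeR 4.0.16 (quasi-likelihood test, no covariates, TMM, filterByExpr with minimum count 10 and minimum total 15) and p-values were adjusted by Benjamini-Hochberg over 17037 genes. A gene was called at an adjusted p of at most 0.05. The SE is the size of the log2 fold change divided by the square root of F. CPM used TMM-scaled sizes, and log2 CPM a prior count of 2. Positions and exon lengths came from GENCODE mouse release 21 (46488 of 47069 genes and all 10 members matched). The fit was tested on simulated data.

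The 10 genes and the lists were chosen with earlier results of these data known. Besides the 10, named genes are those called on each neutrophil or partner list and its 2 largest fold changes, up to 4 called genes per marker list by p, and the 5 genes most correlated with each group. Ppbp, Csf3, Ly6g, the low primary granule genes, Epx, Ace and Chil3 fall outside this rule. So do the sex-linked genes, 1 of the 5 red cell genes and the airway genes. All of these were named after their values were seen. Some genes that the rule or the lists hold are not reported here. Alternatives were DESeq2 size factors, upper-quartile factors, no filter, a minimum of 10 counts per library, the exact test of edgeR, the DESeq2 1.42.0 Wald test, the replicate number as a block and each library left out. Tables and figures used Python 3.11.15, pandas 2.3.3, NumPy 2.4.6 and Matplotlib 3.10.9.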

Additional observations from a re-analysis of the deposited data

How the results depend on the processing

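The number of genes called over the whole table was 1089, against 1913 with DESeq2 and 66 with the replicate number as a block, and ran from 1 to 1278 as each library was left out. Genes past both thresholds numbered 109, against 211 with no filter, 203 in the exact test, 169 with DESeq2, 14 with the block and 1 to 214 over the omissions. Members called higher numbered 3, against 6 with DESeq2, 0 with the block, 4 with upper-quartile factors, with no filter, with at least 10 counts in every library or in the exact test, and 0 to 3 over the omissions. Members called lower were 0 under every alternative run. Other neutrophil genes called higher numbered 4, against 6 in the exact test and with DESeq2, 0 with the block and 0 to 7 over the omissions. The median log2 fold change ran from 0.75 to 1.18 for the mature and from -0.69 to 0.13 for the granule genes over the omissions. Signs turned for Ltf (0.051 with the block, 0.99 without WT5, 0.16 without KO5, range -1.09 to 0.99 over the omissions), Ngp (0.21 without WT6, 0.10 without KO5, range -0.89 to 0.21) and Mmp8 (-0.11 without KO6, range -0.11 to 0.46), and the cause was not tested. Deviations of same-numbered WT and KO lungs correlated at -0.03, -0.15 and -0.02, and those of lungs with unlike numbers at -0.23 to 0.26. The deviations were taken from means of 3 lungs per group, so they cannot decide whether the numbers pair the lungs. With the block, adjusted p was 0.0845 for S100a8, 0.0729 for S100a9 and 0.0763 for Retnlg. Depth limits Camp (1 to 14 counts), Ly6g (3 to 7) and Csf3 (0 to 4).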
